A study of Mus musculus with 4 samples.

Results

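The 9 genes described here encode the core of transforming growth factor beta (TGF-beta) signalling: the ligands *Tgfb1*, *Tgfb2* and *Tgfb3*, the receptors *Tgfbr1*, *Tgfbr2* and *Tgfbr3*, and the signal carriers *Smad2*, *Smad3* and *Smad4*. They were taken by name from a deposited table of 30506 loci and 22479 named genes, and each name had a single row that held no other gene. The RNA came from whole mammary glands of 4 mice aged 2 months on a mixed 129SV::FVB/N::C57BL/6 background, 2 of genotype miR-21+/+ and 2 of genotype miR-21-/-, which lack the microRNA miR-21. Poly(A) RNA was sequenced, and levels are given as FPKM, fragments scaled to exon length and to the size of the library. For each genotype there is 1 FPKM value that combines its 2 mice. The labels name no Cre driver or cell type for the deletion, and the whole gland mixes epithelium with fat, vessels, muscle and immune cells.

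TGF-beta ligands are secreted in a latent form and, once freed, bind the type II receptor TGFBR2. This recruits the type I receptor TGFBR1, a kinase that phosphorylates SMAD2 and SMAD3, which enter the nucleus together with SMAD4. In the mammary gland TGF-beta is known as a brake on ductal growth and branching, and *Tgfb3* is known for its rise in milk-filled glands after weaning.

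The study asked which transcripts differ when miR-21 is absent. A microRNA binds messenger RNAs mainly through its seed, bases 2 to 8, and the 9 genes were searched for matches to it. The mature miR-21 of the RefSeq table (build GRCm38.p6) and the matches in the 3′ UTRs of the members are shown because they carry that question, with the seed or its match in capitals.
miR-21: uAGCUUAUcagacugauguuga
*Tgfbr1* site: gtatcacctgcttaaATAAGCTc
*Tgfbr2* site: ggagactgtcatggcATAAGCTg
The *Tgfbr1* window lies at chr4:47425592-47425614 on the plus strand of mm9, and its match starts at base 1958 of an annotated 3′ UTR of 4154 bases. The *Tgfbr2* window lies at chr9:115999253-115999275 on the minus strand, and its match starts at base 236 of a 3′ UTR of 6081 bases. Both matches are followed by a base other than A, so neither is the longer 8mer match. The transcript strand was read, and ATAAGCT was found in the longest annotated 3′ UTR of 2 of the 9 members. Of 12835 named genes with a mean above 1 FPKM and an annotated 3′ UTR, 6.96% held it. The members' 3′ UTRs had a median length of 2262 bases against 1142 over those genes. The 3′ UTRs of the 3 ligands, *Tgfbr3* and the 3 Smads gave no match, which says only that these letters are not in those sequences.

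Each difference below compares 1 combined value per genotype, so the spread between mice cannot be seen, nothing could be tested over mice and the differences have no replicate check. A gene was counted as different when its FPKM values differed by at least 1.5-fold, a log2 ratio of 0.58. The whole table gives the background: of 13636 named genes with a mean above 1 FPKM, 4.9% were at least 1.5-fold higher and 5.79% at least 1.5-fold lower in miR-21-/- glands, and the median log2 ratio was −0.03. Because the ratio of all genes depends on how the columns are scaled, the members' ratios are also given under other scalings further on. The table lists *Mir21* and its host gene *Vmp1* as 1 locus, at 42.5 FPKM with miR-21 and 68.2 FPKM without it. Poly(A) RNA does not measure the mature microRNA, so this locus is no check of the genotype labels.

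Of the 9 members, 2 were at least 1.5-fold higher in miR-21-/- glands and 0 were at least 1.5-fold lower. Both were ligands, *Tgfb2* and *Tgfb3*. The third ligand, the receptors and the Smads, 7 genes in all, stayed within 0.32 of 0 on the log2 scale. Among all 13636 genes 10.3% were above that lower limit and 13.6% below its negative. At 2-fold only *Tgfb2* remained, beside 1.66% of all genes higher and 2.1% lower, or 3.76% in either direction. The share past 1.5-fold in either direction was 10.7%. By direction alone 6 members were higher and 3 were lower, and their median log2 ratio was 0.06. Of all 13636 genes, 38.8% had a ratio at least that of *Smad4* (0.03) and 49.7% at least that of *Tgfb1* (−0.02). The share of all genes that were higher lay between these values, so the split is not read as a result about the members. With both columns scaled to equal sums over all loci, 2 members were higher and 7 lower, and the median of all named genes was −0.66. All 9 had a mean above 1 FPKM.

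**Figure D1:**
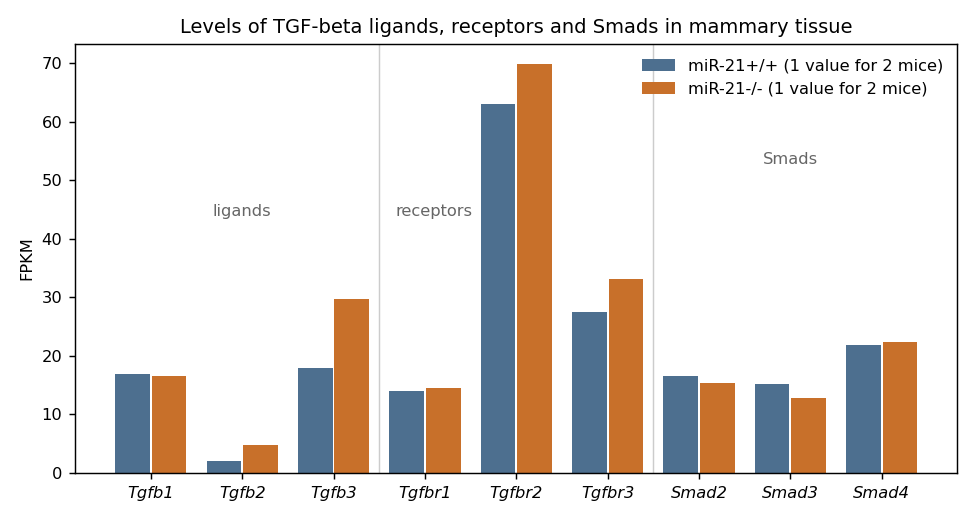
FPKM of the 3 ligands, 3 receptors and 3 Smads on a linear axis from 0, with 1 bar per genotype that combines 2 mice and therefore no error bar. *Tgfb2* and *Tgfb3* are visibly higher in miR-21-/- glands, and *Tgfbr2* is the highest bar in each genotype at 63.0 and 69.8 FPKM.

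*Tgfb1*, the ligand known for its role in immune cells and fibrosis (chromosome 7, 26472021 to 26490015, mm9), was at 16.9 FPKM in miR-21+/+ and 16.6 FPKM in miR-21-/- glands. The levels were nearly level, with a log2 ratio of −0.02. *Tgfb2* (chromosome 1, 188446689 to 188530010), a ligand known for its part in organ development, was at 2.05 FPKM in miR-21+/+ and 4.84 FPKM in miR-21-/- glands. It was 2.36-fold higher without miR-21, a log2 ratio of 1.24, and ranked 125 of 13636 named genes from the highest ratio. *Tgfb2* was also the lowest of the 9 members in each genotype, and with 1 FPKM added to both values its log2 ratio was 0.94.
*Tgfb3* (chromosome 12, 87397693 to 87419991) was at 17.9 FPKM in miR-21+/+ and 29.7 FPKM in miR-21-/- glands. It was 1.66-fold higher, a log2 ratio of 0.73, at rank 463 of 13636. In absolute terms its difference of 11.8 FPKM was larger than that of any other member. The 3 ligands together summed to 36.9 FPKM in miR-21+/+ and 51.1 FPKM in miR-21-/- glands, 1.39-fold higher, a log2 ratio of 0.47 that became −0.16 with equal sums over all loci. *Tgfb1* and *Tgfb3* stood side by side in miR-21+/+ glands, with 45.8% and 48.6% of the ligand sum, and *Tgfb2* held 5.56%. In miR-21-/- glands the shares were 32.5% for *Tgfb1*, 58.1% for *Tgfb3* and 9.47% for *Tgfb2*. The level of *Tgfb3* was thus 1.06 times that of *Tgfb1* in the first genotype and 1.79 times in the second.

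*Tgfbr2*, the type II receptor that binds ligand first (chromosome 9, 115996813 to 116084481), was the most abundant member, at 63.0 FPKM in miR-21+/+ and 69.8 FPKM in miR-21-/- glands. Its log2 ratio was 0.15, and 20.4% of the 13636 genes had a ratio as high. *Tgfbr1*, the type I receptor kinase (chromosome 4, 47366123 to 47427797), was at 13.97 and 14.5 FPKM, a log2 ratio of 0.06. The table marks the authors' own test of *Tgfbr1* as failed, although it lists both FPKM values. These are the 2 members with a miR-21 seed match shown above, and both log2 ratios were under 0.32. *Tgfbr3*, or betaglycan, a coreceptor that presents ligand and is known to matter most for TGF-beta2 (chromosome 5, 107535589 to 107718614), was at 27.5 and 33.1 FPKM. At 1.20-fold and a log2 ratio of 0.27 it differed most among the receptors, and 12.6% of the genes had a ratio as high. The proportions among the receptors were close in the 2 genotypes. *Tgfbr2* held 60.3% and 59.4% of the receptor sum, *Tgfbr3* 26.3% and 28.2%, and *Tgfbr1* 13.4% and 12.4%. The level of the type II receptor was thus 4.51 times that of the type I receptor in miR-21+/+ and 4.80 times in miR-21-/- glands.

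*Smad2* (chromosome 18, 76401496 to 76471523), a receptor-regulated Smad, was at 16.6 FPKM in miR-21+/+ and 15.4 FPKM in miR-21-/- glands, a log2 ratio of −0.10. *Smad3* (chromosome 9, 63494526 to 63605801), the other receptor-regulated Smad of this branch and the one that binds DNA directly, was at 15.1 and 12.9 FPKM. Its log2 ratio of −0.23 was the lowest of the 9 members, and 18.9% of the genes had a ratio as low. *Smad4* (chromosome 18, 73794441 to 73863395), the common partner shared with the bone morphogenetic protein (BMP) branch, was at 21.9 and 22.3 FPKM, a log2 ratio of 0.03. *Smad2* and *Smad3* together summed to 31.7 and 28.3 FPKM. The level of *Smad2* was 1.09 times that of *Smad3* in miR-21+/+ and 1.20 times in miR-21-/- glands. The log2 ratios of the 3 Smads thus stayed within 0.32 of 0, and 23.9% of all genes lay at or beyond that limit in either direction.

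**Figure D2:**
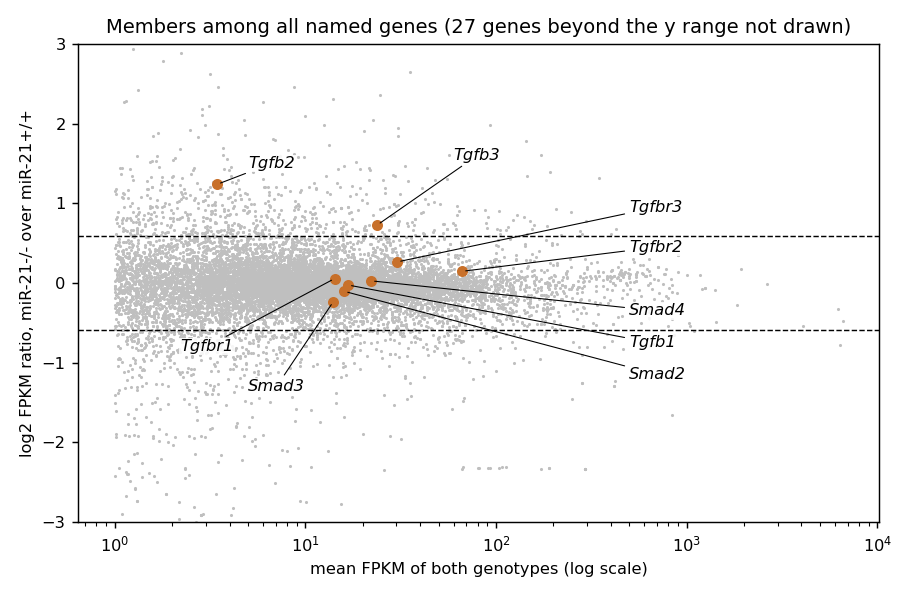
Log2 ratio of FPKM, miR-21-/- over miR-21+/+, against the mean FPKM of both genotypes on a log axis for named genes with a mean above 1 FPKM (grey) and the 9 members (orange). Dashed lines mark 1.5-fold, 27 genes beyond the axis range of −3 to 3 are not drawn, and only *Tgfb2* and *Tgfb3* of the members lie outside the dashed lines.

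FPKM is scaled to transcript length, so levels can also be set side by side between genes. In miR-21+/+ glands the order from the highest level was *Tgfbr2*, *Tgfbr3*, *Smad4*, *Tgfb3*, *Tgfb1*, *Smad2*, *Smad3*, *Tgfbr1* and *Tgfb2*. In miR-21-/- glands *Tgfb3* stood above *Smad4* and *Tgfbr1* above *Smad3*, and the other places were the same. With no value per mouse, it cannot be said which neighbours in this order differ beyond the spread between mice. Among the 22479 named genes, *Tgfbr2* lay at the 95.2nd percentile of level in miR-21+/+ and the 96.2nd in miR-21-/- glands. *Tgfb2* moved from the 45.1st to the 55.8th percentile and *Tgfb3* from the 81.1st to the 89.0th. The other 6 members lay between the 75.2nd and the 90.2nd percentile in either genotype.

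The wider pathway was described with 7 lists of 76 genes, of which 68 had a mean above 1 FPKM. Of these, 6 were at least 1.5-fold higher and 8 at least 1.5-fold lower in miR-21-/- glands (8.82% and 11.8%). The shares of all 13636 named genes past 1.5-fold were 4.9% and 5.79%. The median log2 ratio of the 68 was 0.05. Among 14 genes that hold ligand in the matrix or free it, 2 were higher and 1 lower past this limit. *Thbs1*, thrombospondin 1, an activator of latent TGF-beta, was at 20.2 and 48.9 FPKM, a log2 ratio of 1.28. *Itgb8*, an integrin chain that also frees latent ligand, was at 1.86 and 3.58 FPKM, a log2 ratio of 0.95. *Emilin1*, a matrix protein known to hold back the processing of the TGF-beta1 precursor, was at 20.3 and 12.6 FPKM, a log2 ratio of −0.69. *Dcn*, decorin, a matrix proteoglycan that binds TGF-beta, was the most abundant of the list at 809 and 839 FPKM.

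None of 4 accessory receptors, 4 other Smads and 11 Smad regulators above 1 FPKM passed 1.5-fold. The coreceptor *Eng* was at 36.3 and 31.2 FPKM and the decoy receptor *Bambi* at 1.14 and 1.404 FPKM. *Smad1*, of the BMP branch, was at 9.51 and 13.8 FPKM, a log2 ratio of 0.54, and *Smad5*, of the same branch, at 20.0 and 20.1 FPKM. The inhibitory *Smad7*, itself known to be induced by TGF-beta, was at 3.40 and 2.60 FPKM, a log2 ratio of −0.39. Among the regulators the log2 ratios ran from −0.32 for the phosphatase *Ppm1a*, the most abundant, to 0.44 for the ubiquitin ligase *Nedd4l*. In the activin and myostatin branch 0 of 9 genes were higher and 2 lower past 1.5-fold, beside 4.9% and 5.79% of all named genes. *Acvr1c*, the receptor ALK7 of fat tissue, was at 18.7 and 10.6 FPKM, and *Mstn*, myostatin, at 1.62 and 0.794 FPKM. The most abundant gene of the branch, *Inhbb*, was at 24.1 and 23.8 FPKM, and the activin antagonist *Fst* at 10.2 and 13.7 FPKM. In the BMP branch 0 of 10 were higher and 1 was lower, *Bmp6* at 5.99 and 3.71 FPKM. With 1 FPKM added the log2 ratio of *Bmp6* was −0.57 and that of *Mstn* −0.55, both within 1.5-fold. Among the *Id* genes, which BMP signals are known to induce, *Id3* was at 42.3 and 44.8 FPKM and *Id2* at 20.9 and 31.1 FPKM, a log2 ratio of 0.57.

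On the deposited scale, genes known to respond to TGF-beta did not move one way. Of 16, all above 1 FPKM, 4 were higher and 4 lower past 1.5-fold, beside 4.9% and 5.79% of all named genes. The median log2 ratio of the 16 was −0.16. With equal sums over all loci 2 were above 0 and 14 below, with a median of −0.79. Past 1.5-fold 0 were then higher and 9 lower, beside 0.931% and 64.6% of all named genes. *Ctgf*, connective tissue growth factor, was the highest by ratio, at 11.7 and 26.9 FPKM and a log2 ratio of 1.20. *Tagln* and *Acta2*, contractile genes of smooth muscle and myoepithelium, had log2 ratios of 0.79 and 0.62, and the matrix gene *Tgfbi* 0.60, of which *Acta2* and *Tgfbi* stood just below 0 with equal sums over all loci. On the other side *Timp1*, a protease inhibitor, was at 24.4 and 7.59 FPKM, a log2 ratio of −1.69. *Fn1*, fibronectin, was at 379.8 and 217 FPKM, and *Postn*, periostin, at 1052 and 668 FPKM. *Col3a1*, the most abundant of the list, was at 1999 and 1654 FPKM. The table marks the authors' test of *Fn1*, *Acvr1c* and *Nedd4l* as failed, as for *Tgfbr1*.

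**Figure D3:**
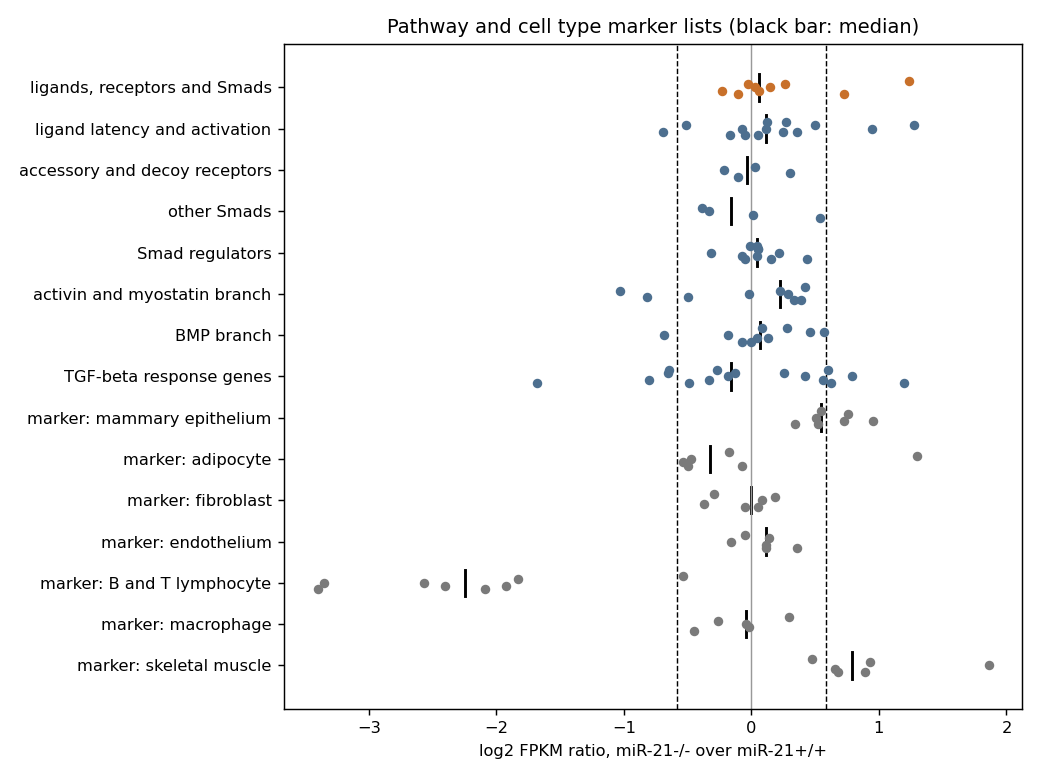
Log2 ratios of FPKM, miR-21-/- over miR-21+/+, for each gene with a mean above 1 FPKM in the member group (orange), 7 pathway lists (blue) and 7 cell type marker lists (grey), with list medians as black bars and 1.5-fold as dashed lines. On the deposited scale drawn here, response genes spread to both sides of 0 with a median of −0.16. On that scale the epithelium markers all lie right of 0 and the lymphocyte markers all lie left of it.

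Of the 68 pathway genes above 1 FPKM, 9 (13.2%) held an 8mer or 7mer-m8 match to the miR-21 seed in the longest annotated 3′ UTR, beside 6.96% of all genes, and the median 3′ UTR length of the 68 was 1415.5 bases against 1142 over all genes. The other 5, *Ltbp2*, *Itgav*, *Smad7*, *Ski* and *Trim33*, did not pass 1.5-fold and had log2 ratios of −0.17, −0.05, −0.39, 0.05 and −0.01. *Ltbp2*, *Itgav*, *Ski* and *Trim33* were named after their values were seen. In either direction 14 of the 68 pathway genes and 10.7% of all named genes passed 1.5-fold. A link between match and ratio was not tested. The 4 with a match that passed 1.5-fold are shown, with the match in capitals, to set the sequence beside the value.
*Itgb8* site: ctctagaaattgcccATAAGCTt
*Tgfbi* site: agaaacggcatcactATAAGCTa
*Acvr1c* site: tgttatgagtataagATAAGCTa
*Postn* site: ctcgagatgattgtcATAAGCTt
These windows lie in mm9 at chr12:120398533-120398555 (minus strand), chr13:56740530-56740552 (plus), chr2:58127036-58127058 (minus) and chr3:54194751-54194773 (plus). *Itgb8* and *Tgfbi* were higher in miR-21-/- glands and *Acvr1c* and *Postn* were lower. The matches in *Tgfbi* and *Acvr1c* are 8mers, ending in A. *Itgav*, *Smad7* and *Ski*, which did not pass 1.5-fold, also hold 8mers.

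Markers of other cell types differed between the genotypes as well. On the deposited scale 4.9% of all named genes were higher and 5.79% lower past 1.5-fold. In whole tissue, fewer cells of a type and less RNA per cell cannot be told apart. All 7 epithelial markers were higher in miR-21-/- glands, 3 of them past 1.5-fold, with a median log2 ratio of 0.55 (−0.084 with equal sums over all loci) and a summed level of 426 against 650.4 FPKM. All 6 skeletal muscle markers were higher, 5 past 1.5-fold, with a sum of 1023 against 1690.2 FPKM, while with equal sums over all loci 5 were above 0, 1 was past 1.5-fold and their median was 0.15. All 8 lymphocyte markers were lower, 7 past 1.5-fold, with a median log2 ratio of −2.25 and a sum of 116 against 57.0 FPKM. The remaining one, *Cd79a*, shares its row with *Arhgef1*. At 70.3 and 48.3 FPKM that row made up most of both sums. Of 6 adipocyte markers 5 were lower and 1 was past 1.5-fold, higher, with a sum of 10643 against 7817 FPKM. With equal sums over all loci 5 adipocyte markers were lower and 1 higher past 1.5-fold, with a median of −0.96. Under that scaling 64.6% of all named genes were lower and 0.931% higher past 1.5-fold, with a median of −0.66. None of the 6 fibroblast, 6 endothelial and 5 macrophage markers in the table passed 1.5-fold, with median log2 ratios of −0.0028, 0.11 and −0.04. With equal sums over all loci these medians were −0.63, −0.52 and −0.68, close to the common shift of −0.63, and 3, 2 and 4 markers were lower past 1.5-fold. No marker was listed at 0 in either genotype. Besides *Cd79a*, an epithelial marker past 1.5-fold, an endothelial marker and a macrophage marker also share their rows with other genes. Set against the median of the epithelial markers, the log2 ratio was 0.69 for *Tgfb2* and 0.18 for *Tgfb3*, and between −0.78 and −0.28 for the other 7 members. This list was chosen after seeing the data, and no other marker list was subtracted. The skeletal muscle median was larger, at 0.79 on the deposited scale, and the fibroblast median was −0.0028. Another list would therefore give other values. The part of tissue makeup in the members' values was not tested.

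The scaling of the columns also bears on each ratio. Over all loci the FPKM sum was 759295 for miR-21+/+ and 1175603 for miR-21-/- glands, while over loci with a gene name it was 380567 and 355385. Scaling to equal sums over all loci shifted every log2 ratio by −0.63, the median of all named genes included. Under it *Tgfb2* stood at 0.61 and *Tgfb3* at 0.10, and these were the only members above 0. Of the pathway genes, *Thbs1* stood at 0.64, *Ctgf* at 0.57, *Itgb8* at 0.32 and *Tagln* at 0.16, so that only *Thbs1* of the 6 higher ones was still past 1.5-fold. Every gene with a deposited log2 ratio between 0 and 0.63 changed direction. Among them were *Smad1* at −0.10, *Id2* at −0.06, *Fst* at −0.21, *Nedd4l* at −0.19 and *Bambi* at −0.33. *Dcn* at −0.58, *Smad5* at −0.62 and *Id3* at −0.55 did so too, as did *Tgfbi* and *Acta2*. Because a scaling shifts every gene alike, each member's distance from the median of all genes is the same under all of them.

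**Figure D4:**
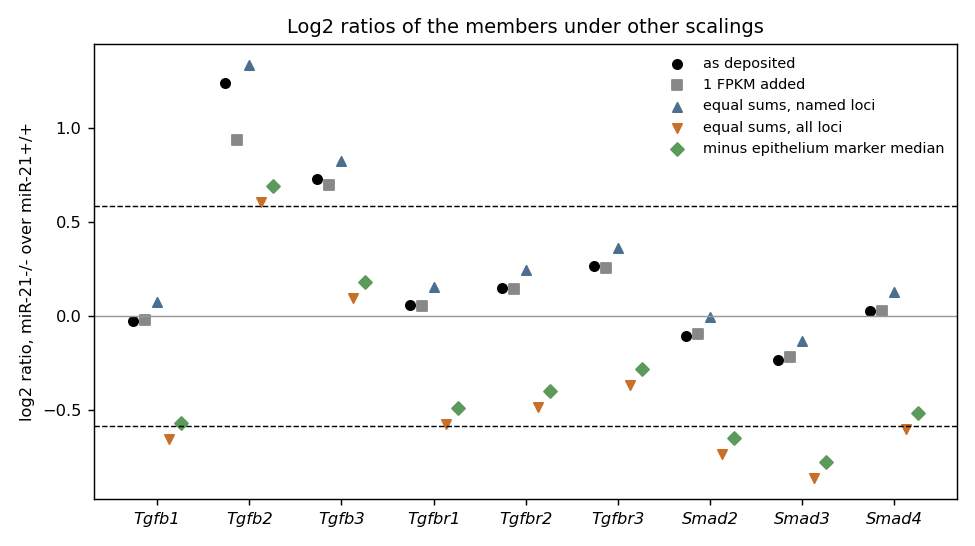
Log2 ratio of each member, miR-21-/- over miR-21+/+, from the FPKM values as deposited, with 1 FPKM added, with columns scaled to equal sums over named loci or over all loci, and minus the median of the epithelial markers. Dashed lines mark 1.5-fold, and *Tgfb2* stays above the upper line in each setting drawn while *Tgfb3* falls below it in the last 2. The epithelial list is the only marker list subtracted, and other lists would give other values.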

How the data were processed

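Poly(A) RNA of mammary glands from 2 miR-21+/+ and 2 miR-21-/- mice gave single-end reads. The authors placed them on mm9 by TopHat and obtained FPKM with Cufflinks. The deposited Cuffdiff table holds 1 FPKM value per genotype for both mice together. The submitters' notes also name CASAVA. Versions, annotation and normalization options are not given in the sources used here. The 5 columns of the authors' own comparison (log2 fold change, test statistic, p-value, q-value and call) were not used, and their test status was used only to mark failed tests. The depth is unknown, since FPKM carries no read counts: among 1782 loci under 0.1 FPKM in both genotypes, no ratio of the values was shared by more than 0.786%.

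Log2 ratios were plain ratios without a pseudocount, from 1 row per gene name, the one with the highest mean FPKM. Background genes had a mean above 1 FPKM, and a merged row counts once for each of its names. No test across mice was possible, so limma was not run. Protein sequences were not analysed here. Loci start at 0 in the table (7314 annotated starts matched after adding 1, 422 as printed) and are printed counting from 1. The reference was NCBIM37, the same assembly as mm9, with GENCODE vM1, in which 99.6% of 20510 named loci overlapped the gene of their name and 0 of 9 members shared exon bases with another gene. Motifs were ATAAGCT (7mer-m8), ATAAGCTA (8mer), TAAGCTA (7mer-A1) and TAAGCT (6mer), on the transcript strand of 3′ UTRs. They overlap each other. Each printed site was identical in the genome sequence.

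Named genes were the 9 members and, in each pathway list, the genes past 1.5-fold and those with the highest mean FPKM, largest ratio or smallest ratio above 1 FPKM. Of these, 1 response gene is counted in its list but not reported here by name. From each marker list the rule also allows the gene with the highest mean FPKM. *Cd79a* is the only one of those named, and *Arhgef1* was named after its row was seen. The members, lists and limits were chosen with earlier results of these data known. The scripts were tested on simulated data and run with Python 3.11.15, numpy 2.4.6, pandas 2.3.3 and matplotlib 3.10.9.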

Additional observations from a re-analysis of the deposited data

How the results depend on the processing

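No paired analysis was possible because both mice of a genotype share 1 value. Fits without each replicate in turn could not be run either. The depth is unknown, which limits low values such as those of *Tgfb2*. A log2 ratio was said to move when it changed by 0.1 or more, and a count or share when it changed by over 1.5 times.
With 1 FPKM added, *Tgfb2* moved to 0.94. Then 5 pathway genes were higher and 5 lower past 1.5-fold, beside 3.44% and 3.97% of all named genes. *Bmp6* (−0.57), *Mstn* (−0.55) and a gene not reported by name were no longer among the lower ones. *Tgfbi* (0.58) was just within the limit. With equal sums over all loci the log2 ratios were −0.66 (*Tgfb1*), 0.61 (*Tgfb2*), 0.10 (*Tgfb3*), −0.57 (*Tgfbr1*), −0.48 (*Tgfbr2*), −0.37 (*Tgfbr3*), −0.73 (*Smad2*), −0.86 (*Smad3*) and −0.60 (*Smad4*), with a median of −0.57. Then 1 member was higher and 4 were lower past 1.5-fold, as were 1 and 33 pathway genes and 0.931% and 64.6% of all named genes, whose median was −0.66. Of the pathway genes past 1.5-fold as deposited, *Tgfbi* and *Acta2* changed sign, to −0.034 and −0.0095. These moves follow from the common shift. With equal sums over named loci 10 pathway genes were higher and 6 lower past 1.5-fold, beside 6.54% and 4.36% of all named genes.
At the lower limit of 0.32 on the log2 scale 17 pathway genes were higher and 14 lower, and 10.3% and 13.6% of all genes, while the members' counts did not change. At 2-fold 1 member was higher, as were 2 pathway genes, with 2 lower, and 1.66% and 2.10% of all genes. At 1.5-fold the shares of all genes, 4.9% and 5.79%, became 9.29% and 10.3% without an FPKM minimum, and 3.26% and 3.77% with a mean above 5 FPKM, with 1 member higher because *Tgfb2* was left out. Relative to the epithelial markers, a setting added after seeing the data, the log2 ratios were −0.57 (*Tgfb1*), 0.69 (*Tgfb2*), 0.18 (*Tgfb3*), −0.49 (*Tgfbr1*), −0.40 (*Tgfbr2*), −0.28 (*Tgfbr3*), −0.65 (*Smad2*), −0.78 (*Smad3*) and −0.52 (*Smad4*). With 7mer-A1 matches 1 of 9 members had a seed site, beside 6.74% of all genes with a 3′ UTR. With 6mer matches 3 members had one, beside 24.4% of those genes. Summing all rows of a name, equal medians and 0.1 FPKM added moved none of these results, and the share with failed tests left out stayed within 1.5 times.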
